A study of Sus scrofa with 22 samples.

Results

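Transcripts of the mitochondrial ribosome and of the mitochondrial protein import machinery were followed in blood mononuclear cells of mini pigs, a fraction of lymphocytes and monocytes, on 22 Affymetrix porcine arrays. Genes were taken if a probe set of the array carried a single symbol starting with MRPL, MRPS, TIMM or TOMM, and a gene with several such probe sets was represented by the one with the highest mean log2 intensity over the 22 arrays. This gave 76 of the 6765 genes named by a single symbol on the array. They were 36 MRPL genes, named for the large ribosomal subunit, and 22 MRPS genes, named for the small subunit. The others were 7 TOMM genes, named for the outer membrane, and 11 TIMM genes, named for the inner membrane, some of them of the intermembrane space. Families go by symbol, and large subunit, small subunit, outer membrane and inner membrane stand for these symbols below. Some proteins so named are now placed elsewhere, as given below for MRPS36 and TOMM34. Each of the 76 passed the filter on low signal. The arrays cover 4 conditions. The first was pigs given chow with 20% beef tallow for 9 months together with resveratrol, a plant polyphenol, dosed daily at 8 mg for each kg of body weight (2 females, 2 males). The second was pigs given the 20% tallow chow alone for 9 months (2 females, 2 males). The third was control pigs on chow with 5% beef tallow at 9 months (2 females, 2 males), and the fourth was control pigs at the start of the experiment, called time 0 (5 females, 5 males). Every animal was a Mini Pig, and an age was not given in the sources used here. Pigs 8 and 25 of the control group were measured at both times, so the 22 arrays came from 20 pigs.

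Mitochondria keep a small genome of their own and translate its messenger RNAs, which encode core subunits of the respiratory chain and ATP synthase, on a dedicated ribosome. The proteins of that ribosome are encoded in the nucleus, made in the cytosol and brought in through the translocase of the outer membrane (TOM) and the translocases of the inner membrane (TIM). When T cells are activated they enlarge their mitochondria, for which both ribosome and import are needed. Roles given below are those known from human or yeast proteins.

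Values are log2 intensities of single probe sets, so 1 unit is a doubling. They compare arrays within a gene, not genes with each other. Array medians lay between 6.21 and 6.26 over the 23999 probe sets that are not controls. T cell markers were well above the filter on low signal, a log2 of 5 (mean of 11 markers 9.94 to 10.8 per array), as were the 11 monocyte markers (9.53 to 10.4). Means of the 6 platelet markers (6.88 to 9.93) and of the 4 erythroid markers (7.93 to 11.0) were also above this filter. The granulocyte markers S100A8 (4.36 to 5.64), S100A12 (4.08 to 5.74) and ELANE (4.82 to 5.65) were near it, while S100A9, which monocytes also express, ranged from 7.15 to 10.0 and LTF from 4.74 to 7.13. By the level of the poly-A spike-in controls, added to the RNA before labelling, the arrays were divided into 4 level sets. The arrays of each time were split separately, at the largest gap in their levels. Set A held the time 0 females 6 and 10 (9.12 to 9.15) and set B the other 8 time 0 arrays (7.58 to 7.85). Set C held 7 arrays of 9 months (8.39 to 9.02) and set D the remaining 5 (9.93 to 10.6). The sets were inferred from the values and are not labelled as batches. Because the split was made within each time, no set could span both times, and spike-in level set and time cannot be told apart. By level alone, set A (9.12 to 9.15) lay just above set C (8.39 to 9.02).

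Over the 9 months on control chow, transcripts of both ribosomal subunits were called lower far more often than higher, while those of import went both ways. In limma with sex as a covariate and Benjamini-Hochberg adjustment over 17240 tested probe sets, 39 of the 76 genes were lower in control pigs at 9 months than at time 0 (51.3%), where 19.1% of all tested probe sets were lower. Only 8 of the 76 were higher (10.5%), against 15.8% of all tested. The median log2 difference of the 76 genes was -0.26, beside -0.01 over all tested probe sets, and 57 of the 76 had a negative difference, beside 50.8% of all tested. By count it was widest in the small subunit, where 16 of 22 MRPS genes were lower and 0 were higher (median -0.34). Among MRPL genes 17 of 36 were lower and 5 higher (median -0.26). For TIMM the counts were 4 lower and 2 higher of 11 (median -0.12), and for TOMM 2 lower and 1 higher of 7 (median 0.10). Whether the families differ from each other was not tested. In bulk cells, fewer cells of a type and less RNA per cell cannot be told apart.

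The 2 other groups of 9 months had the same 10 time 0 arrays as their starting point, so their values are set beside the control diet and are not independent of it. High-fat pigs at 9 months had 34 genes lower than time 0 (44.7%, against 18.4% of all tested) and 5 higher (6.58%, against 14.5%), with a median of -0.24. High-fat pigs with resveratrol had 27 lower (35.5%, against 18.7%) and 10 higher (13.2%, against 16.4%), with a median of -0.17. In the small subunit these comparisons gave 15 and 12 lower genes of 22, and again 0 higher in either. Comparisons of these groups with time 0 were added after the fall in the control pigs had been seen.

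**Figure D1:**
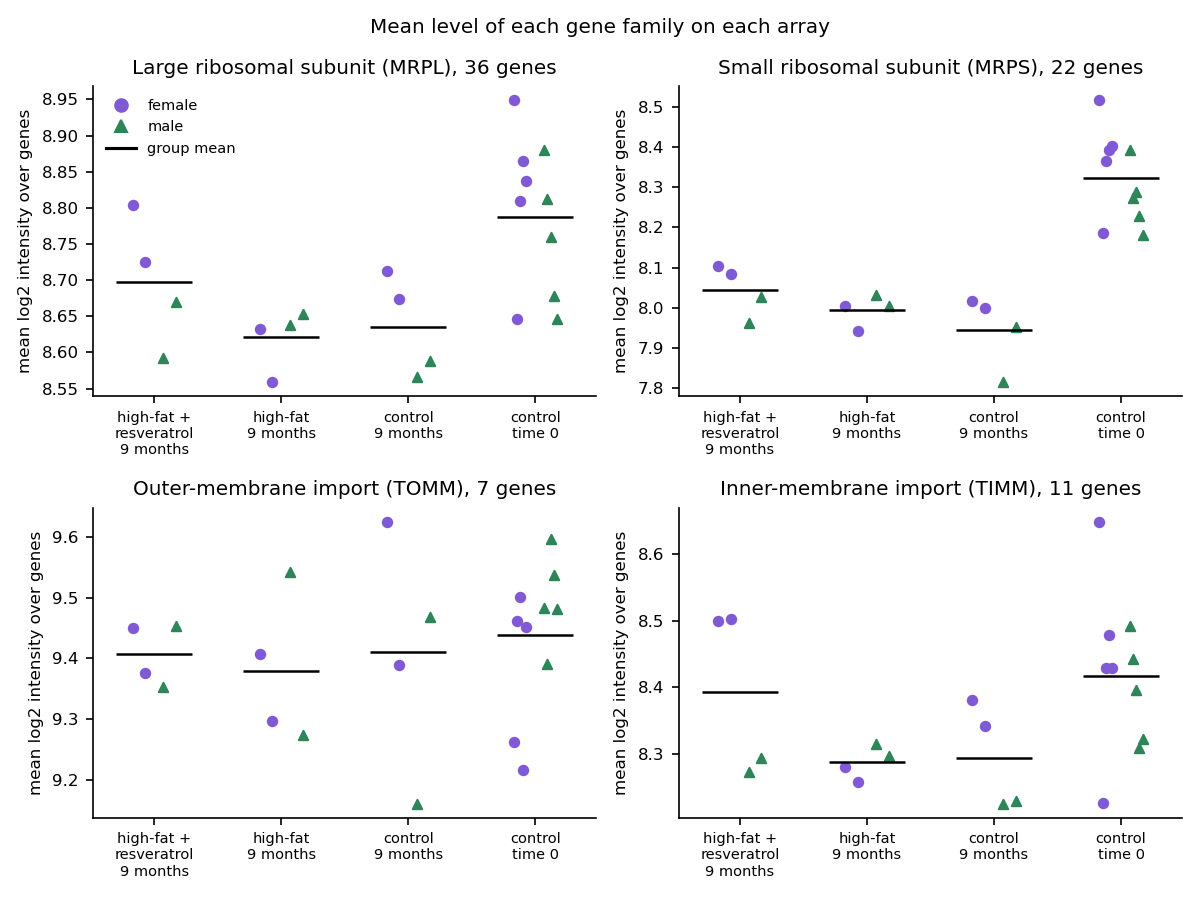
Mean log2 intensity over the genes of each family (vertical axis) on each array, by condition (horizontal axis); circles are females, triangles males and bars group means. The small-subunit mean lay between 7.81 and 8.10 on the 12 arrays of 9 months and between 8.18 and 8.52 on the 10 arrays of time 0, without overlap, whereas the MRPL, TOMM and TIMM means overlapped.

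**Figure D2:**
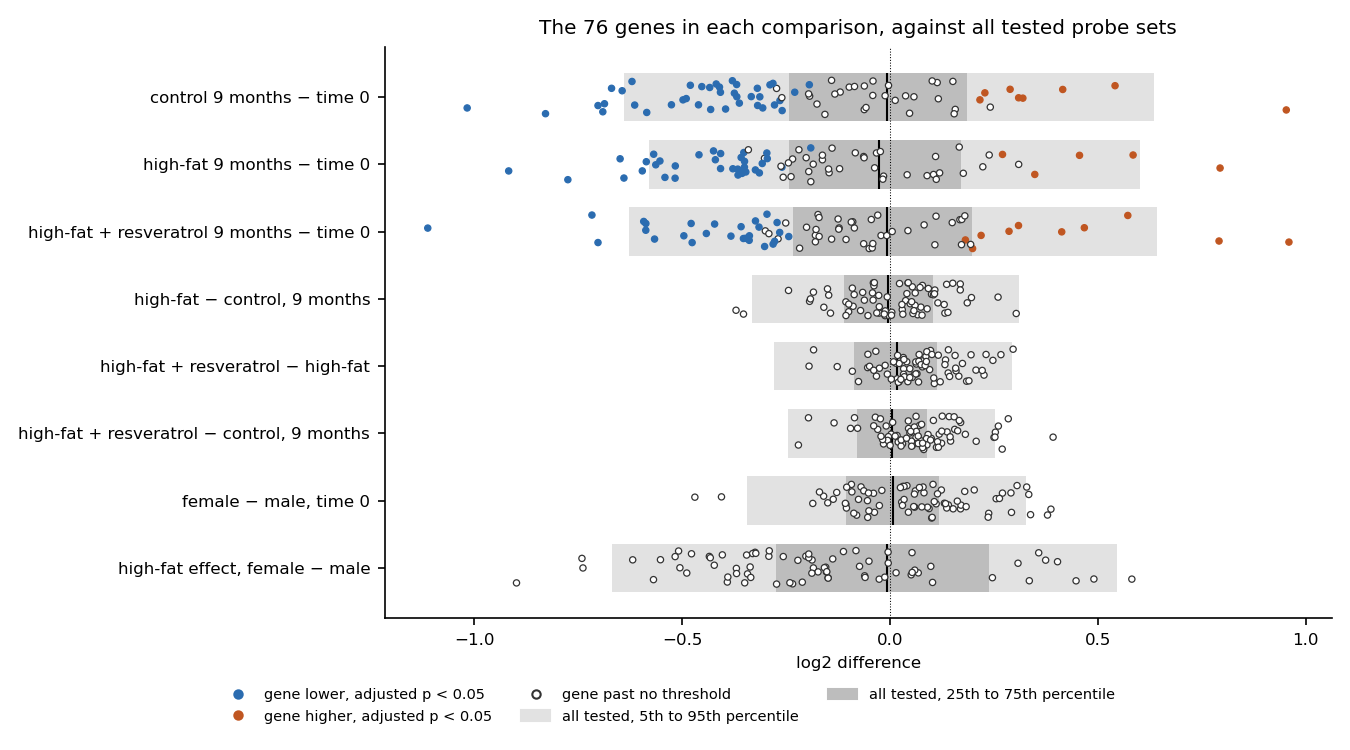
Log2 difference of each of the 76 genes (dots, spread vertically for legibility) in 8 comparisons, over grey bands that give the 5th to 95th and 25th to 75th percentile of the 17240 tested probe sets and a black line at their median. Blue and orange dots (lower or higher at an adjusted p under 0.05 in limma) appear in the 3 comparisons with time 0 and in none of the diet or sex comparisons.

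In the large subunit, MRPL19 fell most. This protein belongs to the bacterial-type L19 family at the face that meets the small subunit. Its log2 intensity was 6.62, 6.45, 5.96 and 6.39 in the control pigs at 9 months (females 18 and 8, males 16 and 25, the order used throughout), against 6.92 to 7.52 with a median of 7.15 at time 0. Each pig of 9 months lay below each array of time 0, and the difference was -0.83 ± 0.11 (SE, n = 4 against 10, limma adjusted p = 1.15e-05). High-fat pigs with resveratrol ranged from 6.27 to 6.60 and high-fat pigs from 6.33 to 6.50, also below the time 0 range. MRPL14, a core protein at the subunit interface, read 8.06, 7.74, 7.89 and 7.84 in control pigs at 9 months, against 8.28 to 8.89 with a median of 8.55 at time 0. Here too the groups did not overlap, with a difference of -0.69 ± 0.09 (limma adjusted p = 1.54e-05). The resveratrol group (7.79 to 7.94) and the high-fat group (7.82 to 8.10) lay with the control pigs of 9 months. MRPL13, another core protein of the subunit, was at 8.54, 8.60, 8.23 and 8.56 in control pigs at 9 months, against 8.80 to 9.65 with a median of 8.99 at time 0. The lowest time 0 array stood above the highest of the control pigs at 9 months, and the difference was -0.62 ± 0.13 (limma adjusted p = 0.0013).

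The 14 other large-subunit genes called lower had differences of smaller size. They included MRPL39 (-0.46 ± 0.12), MRPL3 (-0.41 ± 0.10), which takes part in forming the peptidyl transferase region, MRPL58 (-0.37 ± 0.08), a peptidyl-tRNA hydrolase built into the ribosome that can release stalled chains, and MRPL1 (-0.37 ± 0.14) of the stalk where spent tRNA leaves. MRPL37 changed by little, -0.32 ± 0.06, yet its 4 control arrays of 9 months (highest 9.56) all lay below the lowest time 0 array (9.66). A further 14 of the 36 genes passed no threshold, among them MRPL11 (-0.06 ± 0.10) at the base of the factor-binding stalk and MRPL45 (-0.01 ± 0.08), which tethers the ribosome to the inner membrane.

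A few large-subunit genes went the other way. MRPL33, a small protein near the tRNA exit site, read 9.53, 10.01, 9.57 and 9.23 in control pigs at 9 months, against 8.16 to 9.03 with a median of 8.65 at time 0. All 4 lay above the time 0 range, and the difference was 0.95 ± 0.15 (limma adjusted p = 5.74e-05). The high-fat group with resveratrol (9.23 to 9.80) and the high-fat group (9.31 to 9.50) were also above it. A second MRPL33 probe set, Ssc_17523_2_S1_a_at, gave only 0.15 ± 0.11 (adjusted p = 0.300), so the size of this rise rests on 1 probe set. MRPL16, a protein next to the peptidyl transferase centre, was at 9.58, 9.91, 9.52 and 9.57 in control pigs at 9 months, against 8.64 to 9.44 with a median of 9.17 at time 0. Those groups did not overlap either, at 0.54 ± 0.13 (limma adjusted p = 0.00298). The 3 remaining rises were smaller and their groups overlapped. MRPL44, an RNase III-like protein needed for assembly of the large subunit, was 0.29 ± 0.10 higher (limma adjusted p = 0.0340), with values of 9.73, 9.73, 9.53 and 9.52 in control pigs at 9 months, against 9.00 to 9.62 at time 0. MRPL53 was 0.23 ± 0.07 higher (limma adjusted p = 0.0130; 10.04 to 10.24 in control pigs at 9 months, against 9.73 to 10.12 at time 0), a call lost without pig 18. MRPL15, of the bacterial L15 family, was 0.22 ± 0.08 higher (limma adjusted p = 0.0480; 10.25 to 10.39, against 9.85 to 10.34), a call lost in 19 of 30 alternative settings. That of MRPL44 was lost in 7.

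Among small-subunit genes MRPS36 had the largest fall of the 76. First counted as a ribosomal protein, it is now assigned to the oxoglutarate dehydrogenase complex of the citric acid cycle. Control pigs at 9 months read 5.59, 5.80, 5.13 and 5.23, against 6.12 to 6.93 with a median of 6.44 at time 0. Pigs of 9 months on any of the diets (4.99 to 5.62 with resveratrol, 5.47 to 5.57 on high-fat chow) were all below the time 0 range, and the control difference was -1.02 ± 0.13 (limma adjusted p = 9.85e-06). Its lowest values come close to the filter at a log2 of 5. MRPS25, a mitochondria-specific protein whose loss impairs mitochondrial translation in humans, was at 9.55, 9.71, 9.47 and 9.57 in control pigs at 9 months, against 9.96 to 10.49 with a median of 10.26 at time 0. The groups were apart by -0.67 ± 0.10 (limma adjusted p = 4.53e-05). In contrast to MRPL19 and MRPL14, the high-fat group with resveratrol (9.76 to 10.12) and the high-fat group (9.66 to 10.03) reached into the time 0 range.

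MRPS28 read 6.42, 6.52, 6.38 and 6.40 in control pigs at 9 months, against 6.74 to 7.75 with a median of 7.01 at time 0, a difference of -0.64 ± 0.13 (limma adjusted p = 0.00102). The 12 arrays of 9 months were within 6.26 to 6.57 and all below time 0. MRPS14, a protein of the small-subunit head, was at 7.81, 7.80, 7.46 and 7.78, against 7.99 to 8.72 with a median of 8.23 at time 0, a difference of -0.59 ± 0.11 (limma adjusted p = 0.000517). Control pigs at 9 months did not reach the time 0 range, while 1 high-fat pig (8.04) and the highest pig with resveratrol (8.07) did. For MRPS21 and MRPS5 the groups overlapped in spite of similar sizes. MRPS21, of the bacterial S21 family, read 8.46, 8.59, 8.38 and 8.55 in control pigs at 9 months, against 8.58 to 9.75 with a median of 9.25, a difference of -0.70 ± 0.16 (limma adjusted p = 0.00232). MRPS5, near the messenger RNA entry, was split among the control pigs at 9 months: 7.52 and 7.40 in pigs 18 and 25, and 6.67 and 6.71 in pigs 8 and 16, against 7.49 to 7.98 with a median of 7.80 at time 0. Its difference was -0.69 ± 0.14 (limma adjusted p = 0.000792).

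A further 10 small-subunit genes were lower. MRPS12, the protein of the decoding centre, fell by 0.49 ± 0.07 without overlap (limma adjusted p = 4.67e-05), with 8.88 as the highest control value at 9 months and 9.08 as the lowest at time 0. A second MRPS12 probe set of similar signal gave only -0.16 ± 0.08 (limma adjusted p = 0.113). A dimmer MRPS12 probe set, Ssc_9341_2_S1_at, gave -0.39 ± 0.10 (limma adjusted p = 0.0056). All MRPS12 probe sets were thus negative, while the size of the fall varied among them. MRPS22 (-0.48 ± 0.10) and MRPS34 (-0.31 ± 0.09), whose human genes underlie mitochondrial translation disorders, were lower as well. The other 6 MRPS genes passed no threshold, with differences between -0.20 (MRPS2) and 0.06 (MRPS24). They included MRPS27 at -0.06 ± 0.08, a pentatricopeptide repeat protein that binds mitochondrial RNA.

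**Figure D3:**
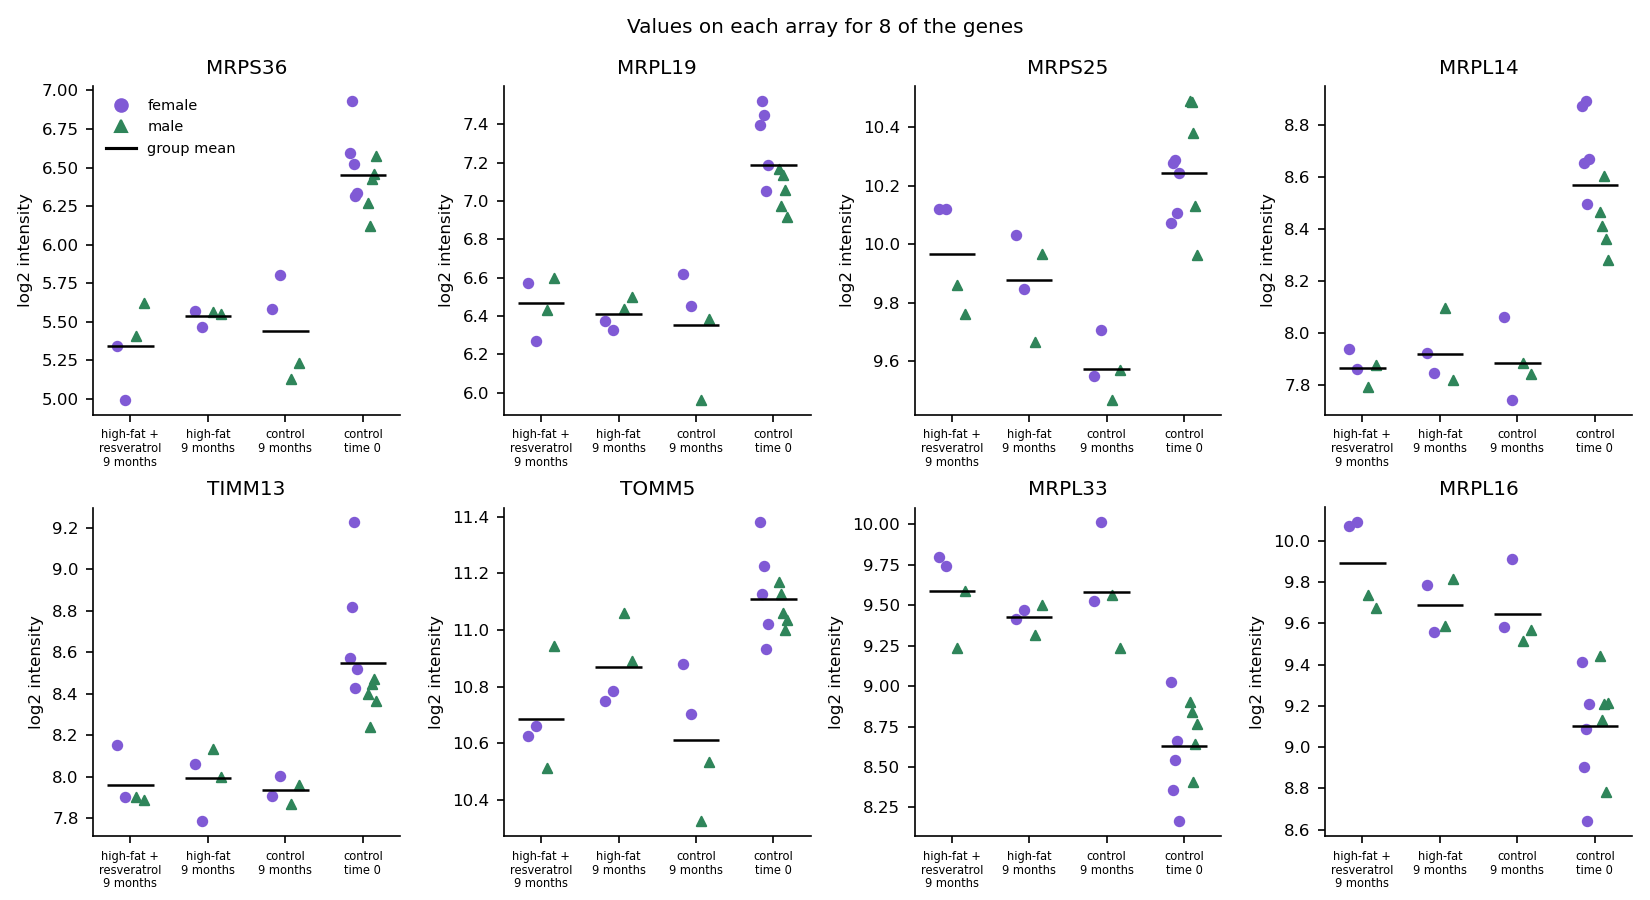
Log2 intensity (vertical axes) of 8 genes on each array by condition, with circles for females, triangles for males and bars for group means. The control pigs at 9 months lie below every time 0 array for MRPS36, MRPL19, MRPS25, MRPL14, TIMM13 and TOMM5, and above every time 0 array for MRPL33 and MRPL16.

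At the outer membrane, TOMM5 and TOMM40L were lower and TOMM34 higher, and the other 4 TOMM genes passed no threshold. TOMM5, a small subunit attached to the import channel, was at 10.88, 10.70, 10.33 and 10.53 in control pigs at 9 months, against 10.93 to 11.38 with a median of 11.09 at time 0. The groups were just separate, with a difference of -0.50 ± 0.10 (limma adjusted p = 0.000688). TOMM40L, a paralogue of the channel protein, was lower by a smaller amount, -0.28 ± 0.10 (limma adjusted p = 0.0391), and its groups overlapped at 6.16 to 6.46 in control pigs at 9 months, against 6.38 to 6.91 at time 0. TOMM34, a cytosolic co-chaperone that handles precursors before import, was higher, at 8.83, 8.69, 8.84 and 8.51 in control pigs at 9 months, against 8.35 to 8.53 with a median of 8.39 at time 0 (difference 0.31 ± 0.09, limma adjusted p = 0.0134). Of its 4 values 3 exceeded the time 0 range, and without pig 16 its call was lost. The receptors that recognise precursors passed no threshold: TOMM20 differed by 0.10 ± 0.09, TOMM70 by 0.15 ± 0.19 and TOMM22 by 0.16 ± 0.42. TOMM7, a small subunit that modulates the complex and stabilises PINK1, differed by -0.13 ± 0.07 (limma adjusted p = 0.143).

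TOMM22 had the largest spread of the 76 genes, with an SD of 0.74 over the 22 arrays. It ranged from 9.38 to 10.8 with resveratrol, from 9.19 to 11.0 on high-fat chow, from 9.33 to 11.1 in control pigs at 9 months and from 8.41 to 11.0 at time 0, so the spread lay within every condition. MRPS36 (0.56) and MRPL33 (0.52) came next, both with their spread between the times. The smallest SDs belonged to MRPL9 (0.11), TOMM7 (0.11) and TIMM44 (0.11), the motor-tethering subunit of the TIM23 complex.

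For the inner membrane, 4 of the 11 TIMM genes were lower, namely the small chaperones TIMM13, TIMM10 and TIMM8B and the TIM23 subunit TIMM50. TIMM13, which with TIMM8 proteins shields hydrophobic precursors, read 7.91, 8.00, 7.87 and 7.96 in control pigs at 9 months, against 8.24 to 9.22 with a median of 8.46 at time 0. The 12 arrays of 9 months (up to 8.15) were all below time 0, with a control difference of -0.61 ± 0.12 (limma adjusted p = 0.000498). TIMM50, the TIM23 receptor that takes over precursors from TOM, differed by -0.53 ± 0.12 (limma adjusted p = 0.00231). TIMM10, a partner of TIMM9 in the carrier pathway, differed by -0.42 ± 0.09, while TIMM9 itself differed by -0.09 ± 0.10 and passed no threshold. TIMM8B was lower by -0.41 ± 0.13 (limma adjusted p = 0.0162). TIMM8A, whose human counterpart is the deafness-dystonia gene, differed by 0.24 ± 0.10 (limma adjusted p = 0.0545). Higher signal was found for TIMM22, the channel of the carrier translocase, and for TIMM10B, the chaperone bound to it. TIMM22 was at 8.39, 7.58, 7.55 and 8.03 in control pigs at 9 months, against 7.26 to 8.14 with a median of 7.36 at time 0 (0.42 ± 0.15, limma adjusted p = 0.0383). TIMM10B was at 9.76, 9.92, 9.64 and 9.63, against 9.05 to 9.70 with a median of 9.43 (0.32 ± 0.12, limma adjusted p = 0.0430). Both pairs of groups overlapped, and of 30 alternative settings TIMM22 lost its call in 14 and TIMM10B in 16.

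**Figure D4:**
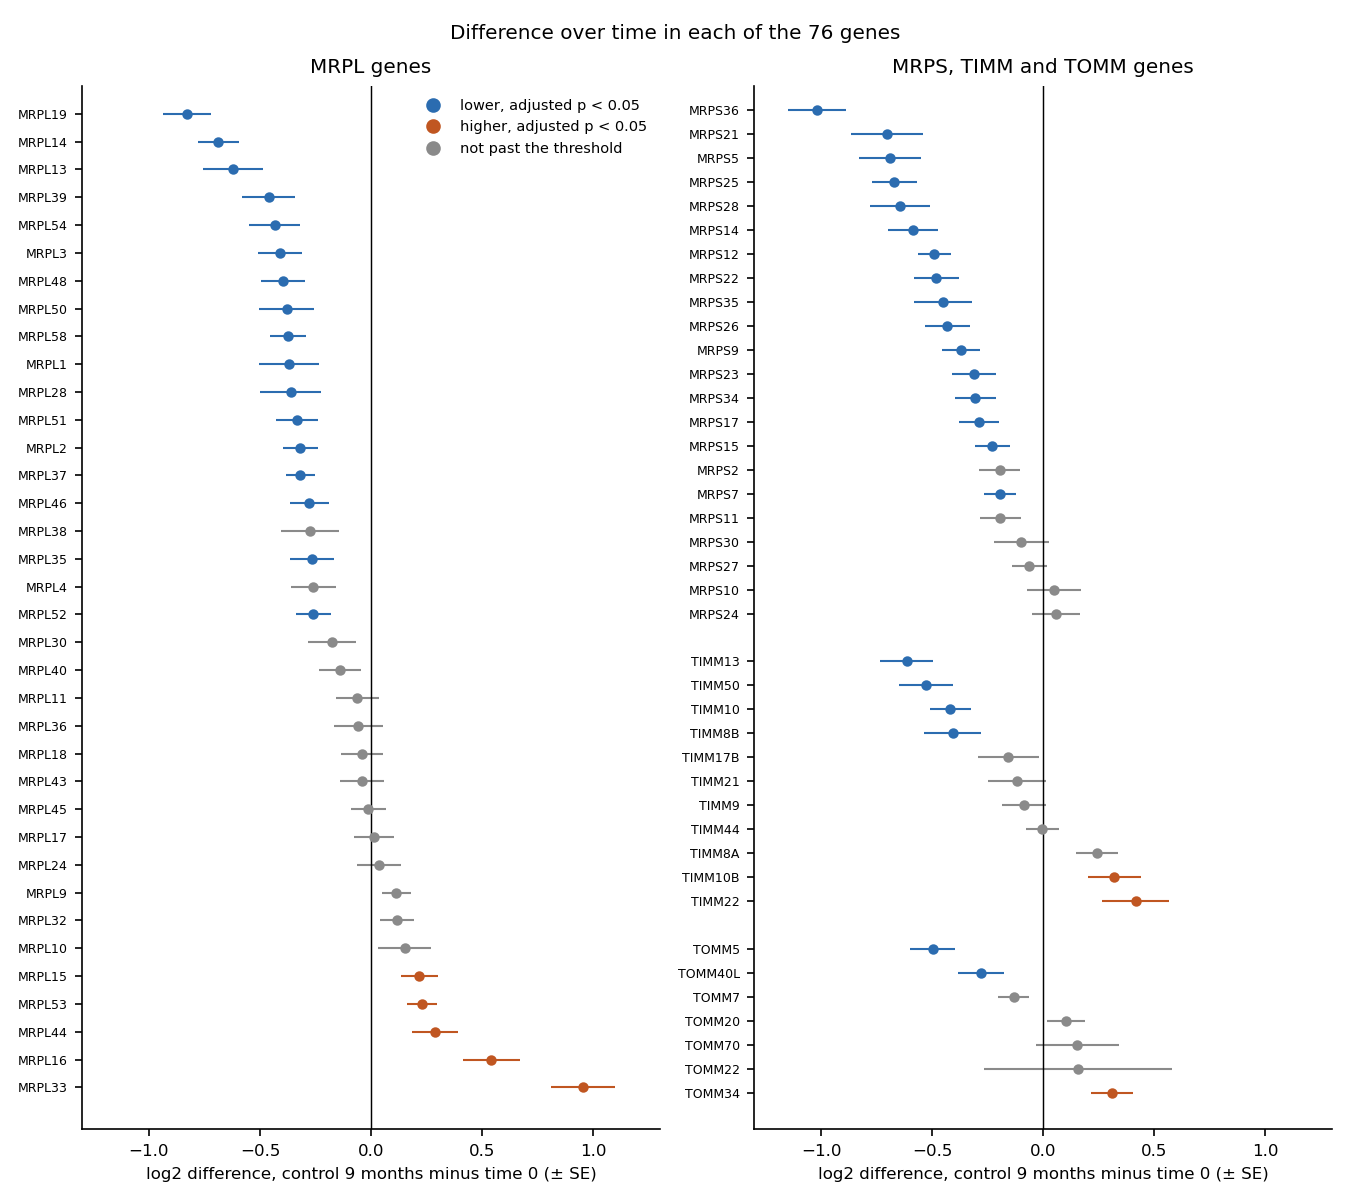
Log2 difference, control pigs at 9 months minus time 0, with its SE (bars) for each of the 76 genes, by family. Blue marks the 39 genes that were lower and orange the 8 that were higher at an adjusted p under 0.05 in limma. None of the 22 MRPS genes is orange.

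Counted by overlap, 14 of the 76 genes had their 4 control arrays of 9 months below all 10 of time 0 (18.4%, against 8.64% of all tested) and 2 had them above (2.63%, against 6.54%). Within pig 8, all 39 genes called lower were lower at 9 months than at time 0 (median -0.51) and all 8 called higher were higher. Within pig 25, 34 of the 39 were lower (median -0.25) and 8 of the 8 were higher. These 2 pigs are part of the fit, so their counts describe it and do not test it. The 17 genes with further probe sets gave a second reading. Of 13 further tested probe sets beside a called gene, 12 had the sign of the one used and 6 passed the threshold with it, among them those of MRPL2, MRPL3, MRPL52 and TIMM50. MRPL46 had the exception, a dim probe set at 0.08 ± 0.09. MRPL32 split the other way: the probe set used differed by 0.12 ± 0.08 (limma adjusted p = 0.261), and its other, Ssc_29111_1_S1_at, by -0.30 ± 0.08 (limma adjusted p = 0.00809).

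Partner genes of the same pathways, taken from lists of textbook members, were also called lower more often than higher. Of 56 tested, 21 were lower (37.5%, against 19.1% of all tested probe sets) and 8 higher (14.3%, against 15.8%) in control pigs at 9 months than at time 0, with a median of -0.13. The single lists are small, and their counts read against the same 2 shares of all tested. Of the 7 translation factors 5 were lower and 1 higher. TUFM, the elongation factor that delivers tRNA, differed by -0.61 ± 0.11 (limma adjusted p = 0.000214). GFM1, the translocation factor, differed by -0.58 ± 0.12 (limma adjusted p = 0.00101), and MTFMT, which formylates the initiator tRNA, by -0.80 ± 0.20 (limma adjusted p = 0.00367). The release factor MTRF1L was higher, by 0.65 ± 0.13 (limma adjusted p = 0.00059). Among tRNA synthetases and the amidotransferase that completes glutaminyl-tRNA, 4 of 10 were lower and 1 higher, with IARS2 at -0.66 ± 0.10 and the amidotransferase subunit GATC at -0.58 ± 0.11 lower and WARS2 at 0.29 ± 0.09 higher.

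Of the 13 assembly and RNA maturation genes 4 were lower and 1 higher. TFB1M, which methylates the small-subunit ribosomal RNA, differed by -0.64 ± 0.09 (limma adjusted p = 3.96e-05), and MTERF3 was higher by 0.32 ± 0.09. Ribosomal proteins without an MRP symbol, listed with the insertase OXA1L that docks to the ribosome, were split, with CHCHD1 (-0.31 ± 0.08) and GADD45GIP1 (-0.22 ± 0.08) lower, PTCD3 (0.23 ± 0.08) higher, and DAP3 and OXA1L past no threshold. Of only 3 genes of mitochondrial DNA maintenance and transcription, 2 were higher and 0 lower: TFAM, which packages the mitochondrial genome and starts its transcription, by 0.58 ± 0.11 (limma adjusted p = 0.000369), and the elongation factor TEFM by 0.37 ± 0.13 (limma adjusted p = 0.0337). Import partners gave 3 lower and 2 higher of 12. DNAJC19 of the import motor (-0.36 ± 0.09), and the presequence peptidases MIPEP (-0.38 ± 0.11) and IMMP2L (-0.48 ± 0.13), were lower, and the processing peptidase subunit PMPCB (0.26 ± 0.07) and the motor cofactor GRPEL1 (0.20 ± 0.08) were higher. Chaperones and proteases gave 3 lower of 6, HSPE1 (-0.31 ± 0.07), HSPD1 (-0.23 ± 0.07) and OMA1 (-0.46 ± 0.13), and 0 higher.

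**Figure D5:**
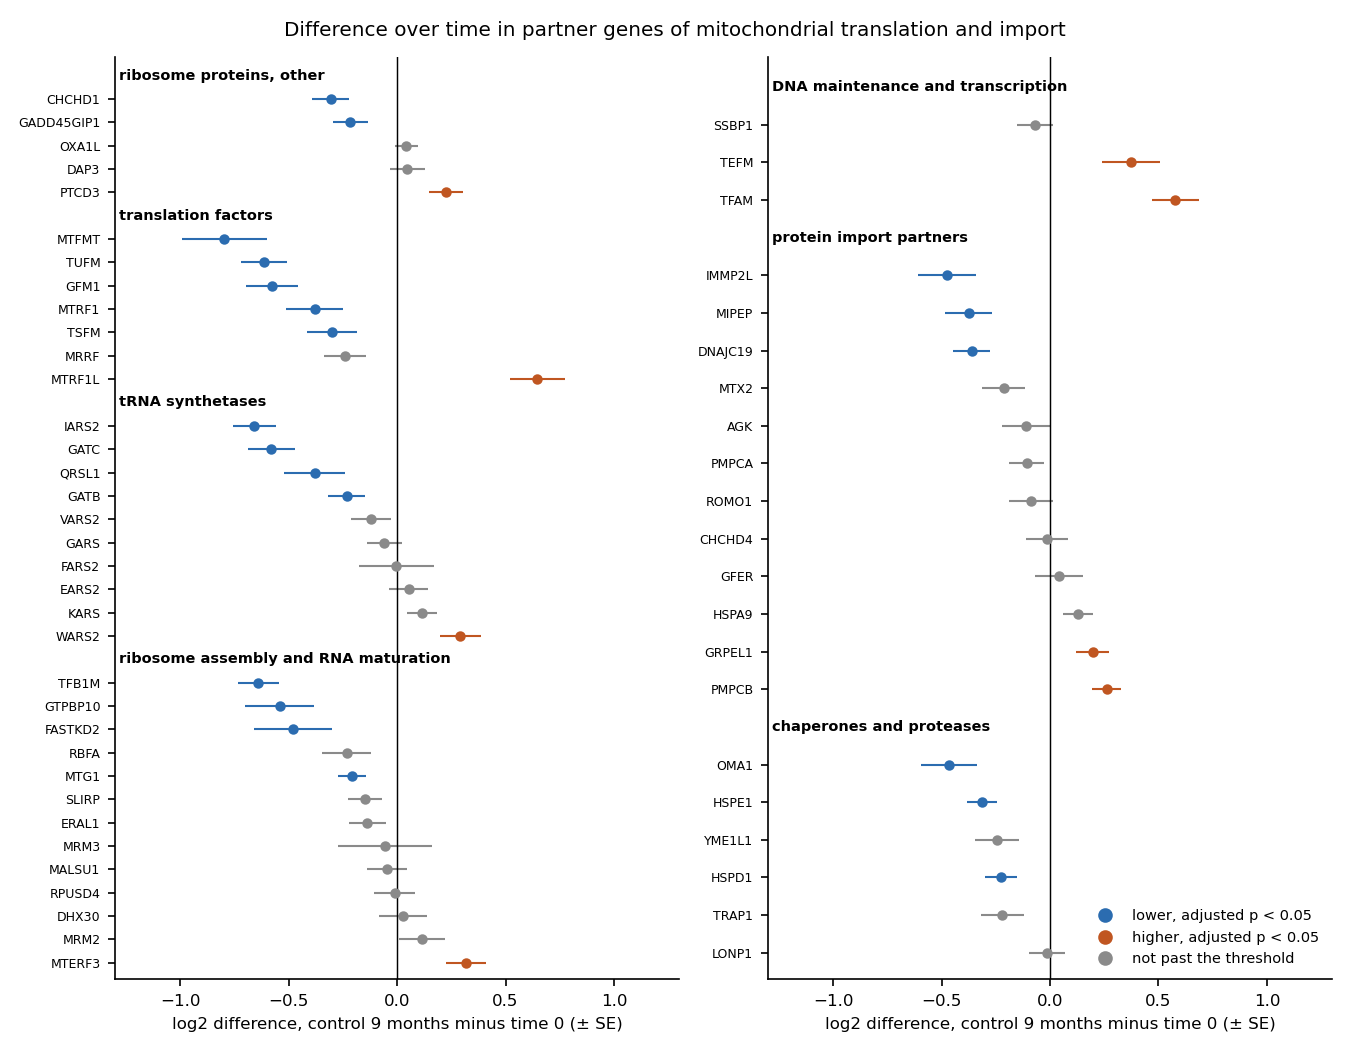
Log2 difference, control pigs at 9 months minus time 0, with its SE (bars) for 56 partner genes in 7 lists. Blue marks the 21 genes lower and orange the 8 higher at an adjusted p under 0.05 in limma; the translation factors lie mostly left of 0 and TFAM and TEFM lie right of it.

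Other measures moved with time in the same arrays. In control pigs at 9 months against time 0, T cell markers were lower for 7 of 11 (mean level 10.1 to 10.3, against 10.5 to 10.8), cycling-cell markers lower for 9 of 12 and higher for 1 (8.63 to 9.00, against 8.92 to 9.70), and erythroid markers lower for 4 of 4 (7.93 to 9.55, against 9.10 to 11.0). Monocyte markers were higher for 2 of 11 (9.94 to 10.4, against 9.67 to 10.3), B cell markers lower for 1 of 2 (9.24 to 9.73, against 9.52 to 10.3) and NK cell markers lower for 2 of 4 (9.34 to 10.0, against 9.83 to 10.4). Platelet markers (6.88 to 9.36, against 8.34 to 9.44) and granulocyte markers (5.72 to 6.02, against 5.57 to 6.68) had 0 calls of 6 and of 5. The actin 3' minus 5' difference, a measure of RNA integrity and labelling, averaged 1.95 ± 0.65 in control pigs at 9 months and 1.42 ± 0.50 at time 0 (SD, n = 4 and 10), and the poly-A spike-in level 9.14 ± 0.87 and 7.98 ± 0.62. With the actin difference as a covariate 40 genes were lower (52.6%, against 22.1% of all tested) and 8 higher (10.5%, against 18.4%). With the monocyte minus T cell marker level as a covariate 22 were lower (28.9%, against 15% of all tested) and 10 higher (13.2%, against 14.1%). With spike-in set as a random block 36 were lower (47.4%, against 16.2%) and 4 higher (5.26%, against 13%). Restricted to sets A and C, whose spike-in levels lie closest across the times, 14 were lower (18.4%, against 5.82% of all tested) and 2 higher (2.63%, against 6.14%). The part of labelling and of cell composition in the fall was not tested beyond these fits.

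The effect of fat intake was examined by setting high-fat pigs against control pigs at 9 months. None of the 76 genes differed in limma, and 0% of all tested probe sets did, with 3 genes at an unadjusted p under 0.05 (3.95%, against 9.06% of all tested). The median difference was 0.01 and the range -0.37 to 0.30, at a median SE of 0.12 (n = 4 each). MRPS25 had the largest positive difference, at 10.03, 9.85, 9.66 and 9.97 in high-fat pigs (females 27 and 30, males 23 and 26), against 9.55, 9.71, 9.47 and 9.57 in control pigs. Its groups overlapped, and the difference was 0.30 ± 0.12 (limma adjusted p = 0.433). TOMM5 followed with 0.26 ± 0.12 (limma adjusted p = 0.523), at 10.75, 10.78, 11.06 and 10.89 in high-fat pigs, against 10.88, 10.70, 10.33 and 10.53 in control pigs. MRPL10, the stalk protein, gave the lowest difference, -0.37 ± 0.14 (limma adjusted p = 0.426), with 9.46, 9.20, 8.92 and 9.22 in high-fat pigs against 9.45, 9.61, 9.87 and 9.35 in control pigs. The 56 partner genes had 0 calls. Monocyte markers had 0 of 11 positive differences (median -0.38) and cycling-cell markers 12 of 12 (median 0.42), none of them past the threshold. Positive differences were also found for 4 of 4 erythroid (median 0.44), 4 of 4 NK cell (0.22), 9 of 11 T cell (0.13) and 5 of 6 platelet markers (0.24). For B cell markers it was 1 of 2 (median -0.10) and for granulocyte markers 2 of 5 (-0.26), and none of these was called either. With the monocyte minus T cell marker level as a covariate 8 of the 76 genes had an unadjusted p under 0.05 (10.5%, against 13.1% of all tested), none of them higher, and the median was -0.03. The part of the cycling-cell, erythroid, NK cell, platelet, B cell and granulocyte markers was not tested.

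Resveratrol was examined on top of the high-fat chow. Again no gene of the 76 differed from the high-fat group in limma, as for 0% of all tested probe sets, and 2 had an unadjusted p under 0.05 (2.63%, against 6.63%). Differences were small and mostly positive, for 62 of the 76 genes, beside 9341 of all 17240 tested probe sets. The median of the 76 genes was 0.06, beside 0.02 over all tested probe sets. Without high-fat female 30 the median was 0.03, with 48 positive. Monocyte markers had 11 of 11 positive differences (median 0.15), platelet markers 5 of 6 (median 0.63) and cycling-cell markers 0 of 12 (median -0.24), none called. With the monocyte minus T cell marker level as a covariate 10 genes had an unadjusted p under 0.05 (13.2%, against 10.6% of all tested). By family 32 of 36 MRPL, 17 of 22 MRPS, 5 of 7 TOMM and 8 of 11 TIMM genes were positive. The mean over the 76 genes was 8.62 and 8.57 in females 21 and 22 and 8.43 and 8.50 in males 4 and 5, against 8.40 to 8.50 in the 4 high-fat pigs. TIMM10 read 8.56, 8.43, 8.16 and 8.27 with resveratrol (females 21 and 22, males 4 and 5), against 8.05, 8.05, 8.15 and 8.10 in high-fat pigs. These did not overlap, though males 4 and 5 stood close to the high-fat range, and the difference was 0.27 ± 0.11 (limma adjusted p = 0.736). MRPL36, a zinc-binding protein of the large subunit, read 9.56, 9.51, 9.17 and 9.25 with resveratrol against 9.16, 8.97, 9.01 and 9.16 without, a difference of 0.30 ± 0.13 (limma adjusted p = 0.747). With MRPS9 these were the 3 genes whose resveratrol arrays all lay higher (3.95%, against 1.84% of all tested).

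Set against the control chow, the high-fat group with resveratrol likewise gave 0 calls among the 76 genes and 0% of all tested, with 1 gene at an unadjusted p under 0.05 (1.32%, against 3.85%). That gene was MRPS25, at 10.12, 10.12, 9.86 and 9.76 with resveratrol against 9.55, 9.71, 9.47 and 9.57 in control pigs. All 4 lay above the controls, and the difference was 0.39 ± 0.12 (limma adjusted p = 1.00). MRPS14 and TIMM8B were also without overlap and higher with resveratrol (3 genes in all, 3.95%, against 0.905%), at 0.27 ± 0.14 and 0.28 ± 0.15. Of the 76 genes 60 had a positive difference, beside 8936 of all 17240 tested probe sets. The median of the 76 genes was 0.07, beside 0.01 over all tested probe sets. Without control male 16 the median was 0.03, with 53 positive. NK cell markers had 4 of 4 positive differences (median 0.42), platelet markers 4 of 6 (median 0.87) and monocyte markers 2 of 11 (median -0.30), none called, and their part was not tested. These comparisons share arrays with those above.

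Females and males were compared at time 0. No gene of the 76 passed the threshold, where 1.07% of all tested probe sets did, and 14 had an unadjusted p under 0.05 (18.4%, against 16.4% of all tested). Of these 14, 13 were higher in females, beside 1565 of the 2832 among all tested. MRPS35 came nearest, at 6.84 to 7.26 in 5 females and 6.45 to 6.84 in 5 males, a difference of 0.38 ± 0.11 (limma adjusted p = 0.0844). MRPS11 followed with 0.26 ± 0.08 (limma adjusted p = 0.102). TOMM70, an import receptor, was the gene of the 14 with lower female values, at 7.57 to 8.58 in females and 8.23 to 8.94 in males (-0.41 ± 0.18, limma adjusted p = 0.258). Females 6 and 10 form spike-in set A. Without them 9 genes had an unadjusted p under 0.05 (11.8%, against 9.56% of all tested), 3 of them higher in females, and the median of the 76 genes was 0.01 in place of 0.06.

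Whether the high-fat effect differed between the sexes was tested as an interaction with 2 pigs per sex and diet. It gave 0 calls among the 76 genes, where 0.0058% of all tested were called, and 13 genes with an unadjusted p under 0.05 (17.1%, against 11.7%). Of these 13, 10 had a lower effect in females, beside 1135 of the 2015 among all tested. The median interaction was -0.19 beside -0.01 over all tested probe sets, at a median SE of 0.22. MRPL50 was the clearest by p: high-fat females read 6.55 and 6.43, against 6.74 and 7.03 on control chow. High-fat males read 7.01 and 6.90, against 6.49 and 6.40 on control chow. The high-fat difference was -0.39 in females and 0.50 in males, and the interaction -0.90 ± 0.23 (limma adjusted p = 0.397). With the actin 3' minus 5' difference as a covariate, 2 genes had an unadjusted p under 0.05 (2.63%, against 3.7% of all tested), and without control male 16 there were 4 (5.26%, against 3.63%). Other settings went the opposite way. With the monocyte minus T cell marker level as a covariate, 19 genes had an unadjusted p under 0.05, beside 2303 of all 17240 tested probe sets. The median interaction of the 76 genes was then -0.26. It was -0.23 without control male 25 and -0.14 without control male 16, fits that each left a single control male of 9 months. Erythroid markers had 0 of 4 positive interactions (median -1.25) and platelet markers 5 of 6 (median 1.70), none called, and their part was not tested.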

How the data were processed

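RNA from blood mononuclear cells of 20 pigs was hybridised to 22 Affymetrix porcine arrays. Per the labels' protocols, cells were isolated on a density gradient and RNA was labelled with biotin. The submitters' processing notes list RMA, GCOS and Expression Console 1.1 of Affymetrix. As deposited by the authors, values are normalized intensities on a linear scale, 1 per probe set and array (4.03 to 21973), and replicates were not pooled. RMA makes array distributions alike, which can hide a shift shared by most transcripts.

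Here log2 was taken after a floor of 1. Of 23999 probe sets that were not controls, 17240 (71.8%) were above a log2 of 5 in at least 2 arrays and were tested in limma 3.58.1 (R 4.3.3) with 4 conditions and sex, two-sided, with Benjamini-Hochberg adjustment and a threshold of 0.05. Sex contrasts used 8 group means. Symbols came from the platform annotation, and 75 of 76 matched the Sscrofa11.1 gene table. The members and gene lists were chosen with earlier results of these data known. Named genes were, per comparison, those called (the 10 with the largest change in a direction where more were called), or the 5 smallest p per direction, plus extremes of level and SD. The rule for partner genes was the 5 called with the smallest p per direction. Other genes named, partner genes beyond that rule included, were chosen after their values were seen. Replicates were separate pigs. Pigs 8 and 25 appear at both times: their deviations correlated at -0.056 and 0.199, and pig as a replicate block gave 38 genes lower and 6 higher over time. The number of arrays limits the precision. Alternatives are given at the end.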

Additional observations from a re-analysis of the deposited data

Results flagged for a closer look

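In 14 of the 196 combinations of a named gene and a condition, 1 array lay apart from the others of its condition by Dixon's criterion, beside the about 1 in 20 that chance gives. At time 0, female 10 was highest for MRPL24 (6.70, next 6.31) and TIMM22 (8.14, next 7.63), and male 25 was lowest for MRPL32 (7.74, next 7.89). Among the control pigs at 9 months, male 16 was lowest for MRPL13 (8.23) and MRPS14 (7.46) and highest for MRPS2 (8.95), and female 8 was highest for MRPL16 (9.91). Male 16 also had the lowest mean over the 76 genes of any array (8.35); without it 30 genes were lower and 6 higher over time.

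On high-fat chow, female 27 was highest for MRPL54 (7.29), male 23 highest for TIMM22 (8.06), male 26 lowest for MRPS12 (8.75) and female 30 lowest for MRPS36 (5.47). With resveratrol, female 22 was highest for MRPS34 (9.34), female 21 highest for TIMM13 (8.15), and male 4 lowest for MRPL53 (9.95).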

How the results depend on the processing

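Over time in control pigs, 39 genes were lower and 8 higher. The median of the 76 genes stayed negative under the 30 alternatives tried. Genes called lower numbered 22 with the monocyte minus T cell marker level as a covariate and 14 with spike-in sets A and C alone (16 calls in both directions). The cause was not tested, though the covariate itself moved with time and the second fit had fewer arrays, with only 2 of time 0. In the other alternatives between 30 and 41 were lower. The count of genes called higher was less stable: 4 with spike-in set as a random block, 5 in the 14 control arrays alone, 2 in sets A and C, and 3 to 8 when 1 pig was left out (30 to 39 lower), with the fewest without control pig 18 of 9 months and 4 or 5 without control pig 8 of 9 months or time 0 pigs 8, 15, 17, 20 or 24. With resveratrol against time 0, 5 in place of 10 genes were higher without female 21 or 22, and 6 with spike-in set as a random block. On high-fat chow against time 0, 9 in place of 5 were higher with quantile normalization, array weights or the monocyte minus T cell covariate. Over time in control pigs, sets A and C alone kept 14 of the 39 lower calls and 1 of the 8 higher ones. MRPL16, MRPL53, TOMM34, MRPS5 and MRPS25 were among those lost. The monocyte minus T cell covariate kept 21 of the 39 and 7 of the 8, and MRPS21 was among those lost. Named genes kept their direction over time in every alternative run. Pig as a replicate block left 38 lower and 6 higher. The diet comparisons gave 0 calls among the 76 genes in each alternative, as did the sex interaction, and female against male at time 0 gave 1 (MRPS35, higher in females, limma adjusted p = 0.0425) without female 20, and otherwise 0.

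Signs reversed in genes far from any threshold. For resveratrol against high-fat, leaving out 1 pig moved MRPS30 between -0.2346 and 0.0157 and MRPL39 between -0.1434 and 0.0238, and MRPL39 was 0.0115 with the actin covariate. For resveratrol against control chow, leaving out 1 pig moved MRPS36 between -0.2127 and 0.0466 and MRPL38 between -0.2219 and 0.0556, and MRPL38 was 0.011 with array weights. With 4 pigs per diet, differences near the SE of 0.12 cannot be resolved.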
